A study of Rattus norvegicus with 20 samples.

Results

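The genes described here are 9 interferon-induced genes, Ifitm1, Ifitm2, Ifitm3, Isg15, Mx1, Mx2, Irf7, Ifit2 and Ifit3, chosen by symbol from the 30443 genes of the expression table. Each symbol stood in a single row, so all 9 members were found, and all 9 were among the 15210 genes that reached 1 FPKM (a level from counted fragments, scaled for transcript length and library size) in any library. The table holds 20 RNA-seq libraries from 4 adult female wild-type Long-Evans rats of about 6 to 8 months, with 5 tissue regions dissected from each animal. Every animal, controls included, carried a hemicontusion at cervical level 4 made with a displacement of 0.7 mm, and an electrode array placed later in the motor cortex contralateral to the injury. In the 2 stimulated animals (labelled Treatment), current was passed through this array at 10 Hz in on and off cycles. Sessions took 5 hours a day over 1 week, at 80% of the threshold for forelimb movement. The 2 control animals were connected to a sham stimulator and did not receive this stimulation. Region 1 was the white matter under the electrodes, region 2 its counterpart in the opposite hemisphere, and regions 3, 4 and 5 were the cervical cord rostral to the lesion, at the lesion and caudal to it. No uninjured or unimplanted animal was sequenced, so nothing here compares injured with intact tissue, and each region of each arm rests on 2 animals.

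Interferons are cytokines that cells release when they sense foreign or misplaced nucleic acid. They bind paired receptors, which act through kinases on transcription factors that bind short elements in the promoters of their target genes. In nervous tissue, microglia, infiltrating macrophages and astrocytes can all mount such a response, and some of its genes are also raised by other inflammatory signals. Among the members, Ifitm1, Ifitm2 and Ifitm3 are small membrane proteins that hinder fusion of enveloped viruses with the cell. Isg15 is a ubiquitin-like protein that is attached to other proteins. Mx1 and Mx2 are dynamin-like GTPases with antiviral activity. Irf7 is the transcription factor that amplifies type I interferon production, and Ifit2 and Ifit3 are tetratricopeptide repeat proteins that restrict viral translation.

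The promoters are shown because the response element links these genes to the pathway. RefSeq promoter windows on the GRCr8 build matched 5 of the 9 members (Ifitm2, Ifitm3, Mx1, Irf7 and Ifit3). The core of the element was searched as GAAA, any 2 bases and GAAA again, on both strands, in the 250 bases before the gene start. It was present in 4 of the 5 windows, all but that of Mx1, against 3.41% of the 33469 promoters of the table and 32 of the 62 windows found for other interferon-induced genes (51.6%). These sequences are the 250 bases before the start, 5′ to 3′ on the gene's own strand, with the match in capitals, at chr1:205482349-205482598 (minus strand) for Ifitm2, chr1:205541759-205542008 (minus strand) for Ifitm3 and chr1:241527076-241527325 (plus strand) for Ifit3.
Ifitm2: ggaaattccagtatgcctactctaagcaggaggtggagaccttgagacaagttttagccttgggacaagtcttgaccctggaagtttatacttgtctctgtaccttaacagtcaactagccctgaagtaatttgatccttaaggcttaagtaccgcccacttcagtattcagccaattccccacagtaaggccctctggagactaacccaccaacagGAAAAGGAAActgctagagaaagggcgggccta
Ifitm3: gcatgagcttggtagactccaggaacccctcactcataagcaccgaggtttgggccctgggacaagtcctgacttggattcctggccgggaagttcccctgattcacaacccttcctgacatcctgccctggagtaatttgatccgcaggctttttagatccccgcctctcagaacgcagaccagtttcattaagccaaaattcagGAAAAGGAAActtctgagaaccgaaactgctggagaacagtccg
Ifit3: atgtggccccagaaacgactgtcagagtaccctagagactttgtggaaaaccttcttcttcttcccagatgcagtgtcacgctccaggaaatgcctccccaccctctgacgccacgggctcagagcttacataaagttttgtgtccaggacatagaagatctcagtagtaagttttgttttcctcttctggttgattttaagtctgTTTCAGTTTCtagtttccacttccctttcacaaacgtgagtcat
The match in Ifitm2 and that in Ifitm3 had the same 10 letters, starting 33 and 44 bases before the gene start. For Irf7 only the 30 bases around the match are printed, at chr1:205800073-205800102 (minus strand), where the element was read on the opposite strand and appears as its reverse complement, as it does in Ifit3.
Irf7: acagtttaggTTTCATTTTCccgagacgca
A match describes these letters and is no measurement of binding. The members were chosen as interferon-induced genes, so a share above that of all promoters is no finding of these data. Only exact matches in this window were counted, so the search does not show that Mx1 lacks the element. In the RefSeq order of protein-coding genes Ifitm2, Ifitm1 and Ifitm3 lie next to each other with no gene between neighbours, Ifit2 and Ifit3 are adjacent, and 1 gene, Fam3b, separates Mx1 from Mx2. These pairs and the Ifitm trio are paralogs, so the way the authors' estimation divided shared fragments between neighbours is a source of uncertainty in each gene's level. The library kit kept strand, but the authors state default settings for their tools, and these do not use strand, so reads from overlapping antisense transcripts cannot be told apart.

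FPKM values carry no read depth and the read totals of the study were not used here, and the sums of FPKM over all genes ranged from 191481 to 290718 per library. Fits were made on log2 FPKM with limma across all 15210 genes, with Benjamini-Hochberg adjustment and a threshold of 0.05. Region contrasts used all 20 libraries, and contrasts of stimulation used the 4 libraries of a region. The tissue markers fitted the dissections in the main: cord and hindbrain markers (Hox genes, Slc6a5, Glra1 and Chat) summed to 86.5 to 140 FPKM in the cord and to at most 5.12 FPKM in the hemispheres. The blocks labelled white matter, however, summed to 366 to 597 FPKM over 6 markers of cortical excitatory neurons (such as Slc17a7) and to 748 to 3141 FPKM over 8 oligodendrocyte markers, against 7756 to 11270 FPKM for the latter in the cord. The libraries of stimulated animal 2 stood apart in both hemispheres: macrophage and phagocyte markers summed to 789 FPKM in region 1 and 380 FPKM in region 2, and the other 6 hemisphere libraries had 51.4 to 256 FPKM.

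The level of the members differed by gene and by region. Ifitm2 had the highest mean over the 20 libraries (23.4 FPKM, range 5.35 to 58.4), followed by Ifitm3 (18.4 FPKM, 2.15 to 36.2), Ifitm1 (11.4 FPKM, 0.60 to 54.0) and Mx2 (10.2 FPKM, 2.94 to 27.3). The other members had lower means, from 2.40 FPKM for Ifit2 to 4.00 FPKM for Ifit3. For Ifit3 the mean was drawn up by 1 library at 45.5 FPKM, and its median was 1.66 FPKM. Ifit2 varied least, between 1.07 and 4.47 FPKM. No member was at the floor of 0.1 FPKM in any library, although Mx1 came down to 0.15 FPKM. Ordered by mean log2 FPKM, the lesion was the highest region for 8 of 9 members, and region 1 for Ifit3. The opposite hemisphere was the lowest region for 8 of 9 members, and the rostral cord for Ifitm1. Stimulated animal 2 departed from both: its lowest region was the rostral cord for every member, and its highest was region 1 or region 2. Region 1 was also above the lesion for Mx1, Mx2, Irf7 and Ifit2 in control animal 2, and for Ifitm1 in stimulated animal 1. Isg15, Mx1, Mx2 and Irf7 shared the order lesion, region 1, caudal, rostral, region 2, while in Ifitm2, Ifitm3 and Ifit2 the caudal cord came before region 1. Neighbours in these orders were not separate: in all 36 pairs of neighbouring regions (4 per member) the ranges over the 4 animals overlapped.

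**Figure D1:**
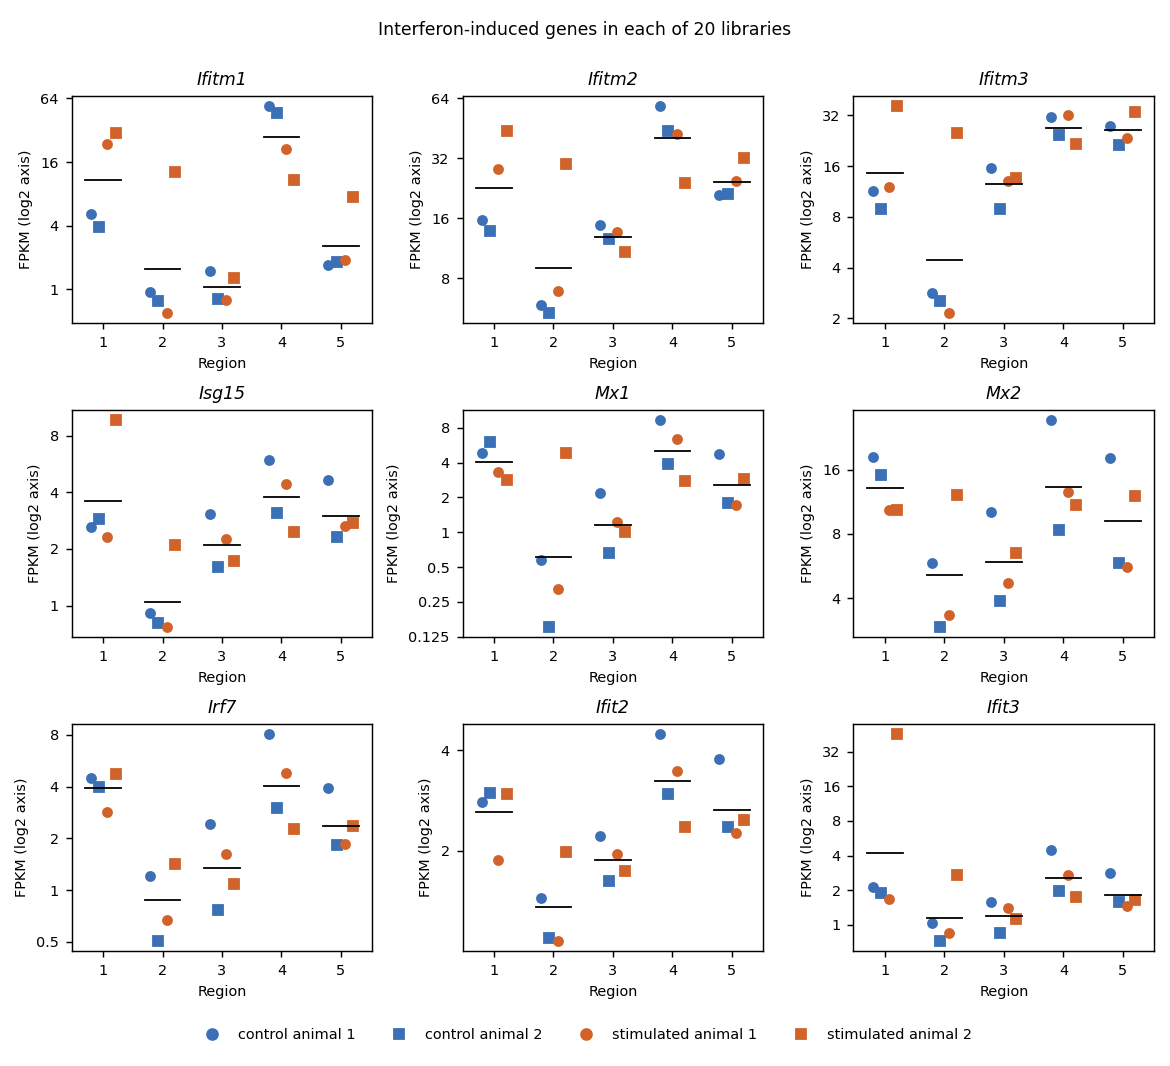
FPKM of the 9 members (log2 axis) in regions 1 to 5, with 1 symbol per library and a black line at the mean of log2 FPKM over the 4 animals of a region. In region 2 the square of stimulated animal 2 lies above the other 3 libraries for all 9 genes, and in region 3 control animal 1 is highest for all 9.

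The lesion was compared with the rostral cord of the same animals, a contrast of the injury site with cord above it. The main fits of the region contrasts did not pair the regions of an animal. All 9 members were higher at the lesion in 4 of 4 animals, a count for which the share over all genes was not taken. The test was passed by 5 of 9 (Ifitm1, Ifitm2, Mx1, Irf7 and Ifit2), where 6.78% of all genes tested were called higher. The median difference of the members was 1.17 on the log2 scale, against -0.02 over all genes. In 6 of 9 members the libraries of both regions did not overlap, with the lesion higher, as in 13% of all genes.

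Ifitm1, a membrane protein also found on leukocytes, separated the regions most. At the lesion it stood at 54.0 and 46.9 FPKM in the control animals and 21.0 and 10.8 FPKM in the stimulated animals, and in the rostral cord at 1.48 and 0.818 FPKM in the control animals and 0.802 and 1.27 FPKM in the stimulated animals. All lesion libraries were above all rostral ones, the controls above the stimulated animals at the lesion, and the gene rose at the lesion (log2 difference 4.71, SE 0.85, adjusted p = 0.00117). Within animals the log2 difference was 5.19 and 5.84 in the control and 4.71 and 3.09 in the stimulated animals.

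Ifitm2 was measured at 58.4 and 43.9 FPKM in the control animals and 42.4 and 24.1 FPKM in the stimulated animals at the lesion and at 14.8 and 12.6 FPKM in the control animals and 13.7 and 10.8 FPKM in the stimulated animals rostrally. Its levels did not overlap and rose by less than those of Ifitm1 (log2 difference 1.64, SE 0.44, adjusted p = 0.0155). Ifitm3 had 31.1 and 24.5 (control) and 32.1 and 21.7 FPKM (stimulated) at the lesion and 15.6 and 8.90 (control) and 13.1 and 13.6 FPKM (stimulated) rostrally. It too showed no overlap, but its difference did not pass the threshold (log2 difference 1.10, SE 0.57, adjusted p = 0.174).

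The GTPase Mx1 had 9.32 and 3.87 (control) and 6.37 and 2.78 FPKM (stimulated) at the lesion, and 2.17 and 0.666 (control) and 1.22 and 0.998 FPKM (stimulated) in the rostral cord. The lesion was the higher region in each animal without overlap, and the difference was just past the threshold (log2 difference 2.12, SE 0.73, adjusted p = 0.0473). For Mx2 the levels were 27.3 and 8.39 (control) and 12.5 and 10.9 FPKM (stimulated) at the lesion and 10.1 and 3.89 (control) and 4.73 and 6.53 FPKM (stimulated) rostrally. Control animal 1 had the highest value in both regions, so that its rostral library lay above the lesion library of control animal 2, and the difference missed the threshold (log2 difference 1.17, SE 0.46, adjusted p = 0.0812).

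Irf7, the amplifier of the response, was at 8.09 and 3.02 (control) and 4.83 and 2.27 FPKM (stimulated) at the lesion and at 2.44 and 0.766 (control) and 1.63 and 1.08 FPKM (stimulated) rostrally. The rostral library of control animal 1 lay just above the lesion library of stimulated animal 2, and the gene rose (log2 difference 1.59, SE 0.41, adjusted p = 0.0126). Ifit2 had 4.47 and 2.96 (control) and 3.47 and 2.36 FPKM (stimulated) at the lesion against 2.22 and 1.63 (control) and 1.96 and 1.74 FPKM (stimulated) rostrally. This was the smallest of the called differences and had no overlap (log2 difference 0.79, SE 0.23, adjusted p = 0.0218). Its neighbour Ifit3, at 1.75 to 4.47 FPKM against 0.842 to 1.57 FPKM without overlap, and Isg15, at 2.45 to 5.97 FPKM against 1.60 to 3.06 FPKM, missed the threshold (adjusted p = 0.319 and 0.156).

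In 9 of 9 members stimulated animal 2 had the smallest difference between lesion and rostral cord, between 0.44 for Ifit2 and 3.09 for Ifitm1 on the log2 scale. The number of members called depended on the animals: it was 2 without control animal 1, 1 (Ifitm1) without control animal 2 or without stimulated animal 1, and 8 (all but Mx2) without stimulated animal 2. With the animal as a replicate block, which uses that the regions came from the same animals, Mx2 was called as well. Beside these genes, 7 of 12 macrophage and phagocyte markers and 4 of 7 homeostatic microglia markers were called higher at the lesion, as were 5 of 5 Schwann cell markers (median log2 difference 1.63), and 4 of 7 neuron markers were called lower. Of all 15210 genes 1031 were called higher and 1953 lower. The summed Schwann cell list ran from 79.2 to 118 FPKM at the lesion and from 14.0 to 64.6 FPKM rostrally. The summed macrophage list ran from 297 to 683 FPKM there and from 122 to 172 FPKM rostrally. Since these are pieces of bulk tissue, more cells of a type and more RNA per cell cannot be told apart, and the part of the marker genes in the members' differences was not tested.

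**Figure D2:**
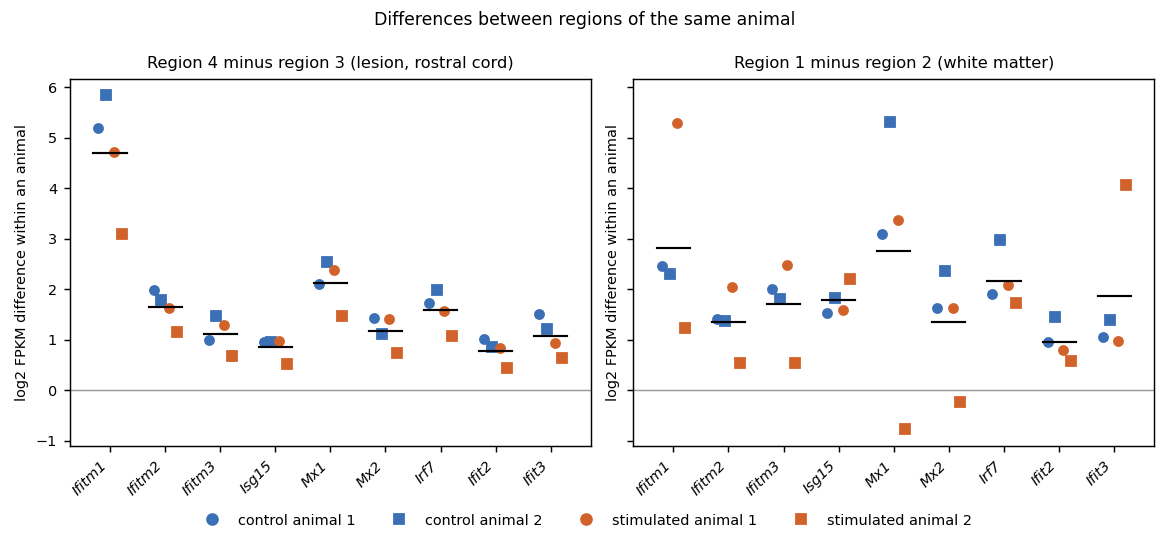
Difference in log2 FPKM between 2 regions of the same animal for each member, lesion minus rostral cord on the left and region 1 minus region 2 on the right, with 1 symbol per animal and a black line at their mean. All points on the left lie above 0, and on the right only Mx1 and Mx2 of stimulated animal 2 lie below it.

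Against the caudal cord the lesion was set apart by Ifitm1 alone among the members. The caudal levels of Ifitm1 were 1.72 and 1.81 FPKM in the control animals and 1.90 and 7.48 FPKM in the stimulated animals. Each lesion library was above all caudal ones, but the caudal library of stimulated animal 2 came close to that animal's lesion library, and the gene rose at the lesion (log2 difference 3.42, SE 0.85, adjusted p = 0.0271). Within animals the log2 differences were 4.97 and 4.70 in the control and 3.47 and 0.53 in the stimulated animals. Of all genes 0.934% were called higher at the lesion and 1.84% were higher there without overlap, and Ifitm1 was the single member in either count. The call was lost without control animal 1, without control animal 2 and without stimulated animal 1, and without stimulated animal 2 Ifitm2 was called as well.

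Ifitm2 was at 20.8 and 21.1 (control) and 24.7 and 32.0 FPKM (stimulated) in the caudal cord, below the lesion in 3 of 4 animals (log2 difference 0.73, SE 0.44, adjusted p = 0.284). Ifitm3 was about as high caudally as at the lesion, at 27.8 and 21.4 (control) and 23.3 and 33.4 FPKM (stimulated) (log2 difference 0.05, SE 0.57, adjusted p = 0.976). The members other than Ifitm1 had differences from 0.05 to 0.98, and in stimulated animal 2 the lesion was below the caudal cord for 7 of 9 members.

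From rostral to caudal cord all 9 members were higher caudally in 4 of 4 animals, and none passed the test in limma (Ifit2 had an unadjusted p of 0.0387, the other 8 were above 0.05, and 24.7% of all genes were below it), while 4.32% of all genes were called in either direction. The libraries did not overlap, with the caudal cord higher, for 4 of 9 members (Ifitm1, Ifitm2, Ifitm3 and Ifit2), against 20.5% of all genes. On the log2 scale the median difference was 0.81 for the members and 0.11 over all genes. The share of all genes that were higher caudally in 4 of 4 animals was not counted. The largest log2 differences were those of Ifitm1 (1.29, SE 0.85), Mx1 (1.15, SE 0.73) and Ifitm3 (1.06, SE 0.57). Ifitm3 was called without stimulated animal 2. Macrophage and phagocyte markers summed to 257 to 356 FPKM caudally, above the rostral range, and the summed Schwann cell list rose from 14.0 to 64.6 FPKM rostrally to 86.8 to 237 FPKM caudally, with 4 of 5 of its genes called.

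The white matter under the electrodes was compared with that of the opposite hemisphere, which had no array. The members were higher under the electrodes: the group median was 1.78 on the log2 scale against 0.06 over all genes, and 5 of 9 members passed the test (Ifitm1, Isg15, Mx1, Irf7 and Ifit2), where 6.86% of all genes were called higher. All 9 had an unadjusted p below 0.05, as had 25.2% of all genes. Libraries without overlap were found for Isg15 and Irf7, 2 of 9 members, against 4.4% of all genes. The side of the array, of the implant surgery and of the cortex opposite the cord injury is the same in every animal, so these cannot be told apart.

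Irf7 gave the firmest difference. It stood at 4.51 and 3.97 FPKM in the control animals and 2.85 and 4.71 FPKM in the stimulated animals in region 1 and at 1.21 and 0.506 FPKM in the control animals and 0.670 and 1.43 FPKM in the stimulated animals in region 2. Every library under the electrodes was above every one of the opposite side (log2 difference 2.17, SE 0.41, adjusted p = 0.00571). Isg15 had 2.63 and 2.87 (control) and 2.30 and 9.67 FPKM (stimulated) in region 1 and 0.916 and 0.809 (control) and 0.770 and 2.09 FPKM (stimulated) in region 2. The library of stimulated animal 2 was the highest in both regions, there was no overlap, and the gene was higher under the electrodes (log2 difference 1.78, SE 0.42, adjusted p = 0.0150).

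Mx1 was at 4.88 and 6.02 (control) and 3.34 and 2.86 FPKM (stimulated) under the electrodes, against 0.571 and 0.152 (control) and 0.324 and 4.88 FPKM (stimulated) on the opposite side. In 3 animals region 1 was far above region 2, and in stimulated animal 2 the order was turned, so that the regions overlapped although the gene was called (log2 difference 2.75, SE 0.73, adjusted p = 0.0271). Mx2 had the same exception, with 18.2 and 15.1 (control) and 10.3 and 10.3 FPKM (stimulated) against 5.88 and 2.94 (control) and 3.36 and 12.1 FPKM (stimulated), and it missed the threshold (log2 difference 1.35, SE 0.46, adjusted p = 0.0761).

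Ifitm1 had 5.17 and 3.87 (control) and 23.6 and 30.3 FPKM (stimulated) in region 1 and 0.943 and 0.784 (control) and 0.600 and 12.9 FPKM (stimulated) in region 2. Stimulated animal 1 showed the widest gap and stimulated animal 2 the narrowest (log2 difference 2.82, SE 0.85, adjusted p = 0.0472). Ifitm2 had 15.6 and 13.8 (control) and 28.2 and 43.7 FPKM (stimulated) in region 1 and 5.84 and 5.35 (control) and 6.87 and 29.99 FPKM (stimulated) in region 2. For Ifitm3 the levels were 11.4 and 8.89 (control) and 11.9 and 36.2 FPKM (stimulated) in region 1 and 2.82 and 2.52 (control) and 2.15 and 25.1 FPKM (stimulated) in region 2. Both were higher under the electrodes in 4 of 4 animals, with the smallest gap in stimulated animal 2, but missed the threshold (adjusted p = 0.0655 and 0.0667).

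Ifit2 was at 2.80 and 2.99 (control) and 1.88 and 2.95 FPKM (stimulated) in region 1 and 1.44 and 1.10 (control) and 1.07 and 1.98 FPKM (stimulated) in region 2. The opposite side of stimulated animal 2 overlapped region 1 of stimulated animal 1, and the gene was called (log2 difference 0.95, SE 0.23, adjusted p = 0.0166). Ifit3 had 2.14 and 1.91 (control) and 1.69 and 45.5 FPKM (stimulated) under the electrodes and 1.03 and 0.724 (control) and 0.855 and 2.72 FPKM (stimulated) on the opposite side. A single library, region 1 of stimulated animal 2, was far above the other 3 of its region, and the difference of the 4 animals missed the threshold (log2 difference 1.87, SE 0.74, adjusted p = 0.121).

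The region 2 library of stimulated animal 2 was the highest of its region for all 9 members. Without it, a choice made after seeing the data, all 9 members were called, as they were without all libraries of that animal. Without control animal 1, 1 member (Irf7) was called, and none without control animal 2 or without stimulated animal 1 (limma, the threshold as above). With the animal as a replicate block Ifitm3 and Mx2 were called in addition. Of the macrophage and phagocyte markers 3 of 12 were called higher under the electrodes. Their sums there were 200 and 159 FPKM in the control and 256 and 789 FPKM in the stimulated animals, and on the opposite side 63.1 and 51.4 FPKM in the control and 58.3 and 379.9 FPKM in the stimulated animals. Of the fibroblast and meninges markers 5 of 8 were called higher, and of the oligodendrocyte markers 6 of 8, where 6.86% of all genes were. The part of these cell types in the members' differences was not tested.

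Against the cord as a whole, the hemisphere blocks (regions 1 and 2, 8 libraries) had lower Ifitm2, Ifitm3 and Ifit2 than the 12 cord libraries, 3 of 9 members, where 47.1% of all genes were called lower. No member was lower without overlap, and 16.8% of all genes were. Ifitm3 differed most (log2 difference -1.37, SE 0.37, adjusted p = 0.00252), with 2.15 to 36.2 FPKM in the hemispheres and 8.90 to 33.4 FPKM in the cord. Ifit2 fell by less (log2 difference -0.42, SE 0.15, adjusted p = 0.0145). For Ifitm2 (log2 difference -0.71, SE 0.29, adjusted p = 0.0334) the difference depended on the animals: with the stimulated animals alone it was 0.02. Without control animal 1 no member was called lower, without stimulated animal 1 Ifitm3 alone, and without stimulated animal 2 there were 6 (Ifitm2, Ifitm3, Isg15, Mx1, Ifit2 and Ifit3). Ifitm1 had a difference of -0.04 that came to -1.23 with control and 1.16 with stimulated animals alone, and Mx2 one of -0.13.

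The stimulated and control animals were compared within each region, the contrast the experiment was set up for. With 2 animals against 2, limma called no member in any of the 5 regions (4, 0, 0, 1 and 1 of 9 had an unadjusted p below 0.05 in regions 1 to 5, beside 828, 215, 522, 341 and 546 of the 15210 genes), and of all genes it called 0% in regions 1 to 4 and 0.0197% in region 5. The exact permutation test of a single gene cannot go below a two-sided p of 0.333 at this size. Spread within an arm was wide: the SE of the log2 difference reached 1.73 for Ifit3 in region 1 and 1.68 for Ifitm1 in region 2.

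In region 1, under the electrodes, the members went apart. Ifitm1 was higher in both stimulated animals (23.6 and 30.3 FPKM) than in both controls (5.17 and 3.87 FPKM), the widest separation of any member in a stimulation contrast, and had an unadjusted p of 4.15e-04 (log2 difference 2.58, SE 0.22, adjusted p = 0.712). Ifitm2 (1.26, SE 0.25) and Ifitm3 (1.05, SE 0.60) were also higher without overlap, which makes 3 of 9 members, where 21.2% of all genes were higher without overlap. The difference of Ifitm3 rested on stimulated animal 2 and was 0.25 without it. Mx1 (-0.81, SE 0.19) and Mx2 (-0.69, SE 0.14) were lower without overlap, 2 of 9 members against 19.5% of all genes. The unadjusted p was below 0.05 for Ifitm1, Ifitm2, Mx1 and Mx2, and their adjusted p was 0.712. Irf7 and Ifit2 overlapped between the arms. For Isg15 and Ifit3 the stimulated animals disagreed: animal 2 had 9.67 and 45.5 FPKM, and animal 1, at 2.30 and 1.69 FPKM, was below both controls.

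These libraries differed in cell type markers as well. All 12 macrophage and phagocyte markers had positive stimulated minus control differences in region 1 (median 1.41), as had all 6 lymphocyte markers that passed the filter (median 1.73) and all 5 neutrophil markers (median 2.91), and none passed the test. Mpo and Elane (neutrophil granules) stayed below 1 FPKM in all libraries. The neutrophil list summed to 124.5 FPKM in stimulated animal 2 and to 1.62 to 3.21 FPKM in the other 3 animals of region 1, and the lymphocyte list to 51.1 FPKM against 6.07 to 14.4 FPKM. Their part in the levels of Ifitm1, Isg15 or Ifit3 was not tested.

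On the opposite side all 9 members had positive differences (median 0.82, against 0.08 over all genes), and stimulated animal 2 was the highest library for each of them. Its levels were 12.9 FPKM for Ifitm1, 25.1 FPKM for Ifitm3 and 4.88 FPKM for Mx1, while stimulated animal 1 had 0.600, 2.15 and 0.324 FPKM, below both controls for Ifitm1 and Ifitm3 and between them for Mx1. Ifitm2 was the 1 member without overlap, against 20.2% of genes higher, and none was lower, against 6.77% of genes. Without stimulated animal 2, the differences of Ifitm1 and Ifitm3 turned to -0.52 and -0.31.

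In the rostral cord the arms overlapped for all 9 members, and differences ranged from -0.17 (Mx2) to 0.18 (Ifitm3). No member was higher or lower without overlap, where 5.14% and 24.7% of all genes were. Mx1 may serve as an example of the spread, at 2.17 and 0.666 (control) and 1.22 and 0.998 FPKM (stimulated): the controls bracketed both stimulated animals.

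At the lesion all 9 members had negative differences (median -0.44, against 0.00 over all genes). Ifitm1 was lower in both stimulated animals (21.0 and 10.8 FPKM) than in the controls (54.0 and 46.9 FPKM), with an unadjusted p of 0.00817 (log2 difference -1.74, SE 0.36, adjusted p = 1.00). Ifitm2 was lower without overlap as well (-0.66, SE 0.34). These 2 members stand against 7.69% of all genes, and none was higher without overlap, against 12.5% of genes. Stimulated animal 2 had the lowest level of 8 of 9 members and control animal 1 the highest of 8 of 9. Without control animal 1 the differences of 6 members turned positive, from 0.09 for Isg15 to 0.48 for Mx2, and 3 of 9 members kept their direction under every alternative. The direction for Ifitm1 in region 4 was opposite to that in region 1, both rest on the same 4 animals, and the difference between these regions was not tested. Macrophage and phagocyte markers summed to 683 and 485 FPKM in the control and 550.2 and 297 FPKM in the stimulated animals, all 12 with negative differences, and their part was not tested.

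In the caudal cord Ifitm1 (1.10, SE 0.71) and Ifitm2 (0.42, SE 0.15) were higher without overlap, 2 of 9 members against 18.5% of genes, and none was lower, against 6.07%. For Ifitm1 this rested on the 7.48 FPKM of stimulated animal 2, since stimulated animal 1, at 1.90 FPKM, was just above the controls at 1.72 and 1.81 FPKM. The 6 members other than the Ifitm genes had negative differences from -0.44 to -0.29, and all of them were highest in control animal 1. Without that animal 5 of the 6 turned positive, from 0.01 for Ifit2 to 0.50 for Mx2, and Ifit3 stayed negative. Markers of other cells differed between these arms too. The Schwann cell list summed to 109 and 86.8 FPKM in the control and 237 and 233 FPKM in the stimulated animals, with all 5 genes at positive differences (median 1.26) and an unadjusted p below 0.05, and none called. The fibroblast and meninges list summed to 131 and 115 FPKM in the control and 188 and 289 FPKM in the stimulated animals (8 of 8 positive), and macrophage and phagocyte markers to 291 and 257 FPKM in the control and 273 and 356 FPKM in the stimulated animals (12 of 12 positive). Their part in the levels of Ifitm1 and Ifitm2 was not tested.

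**Figure D3:**
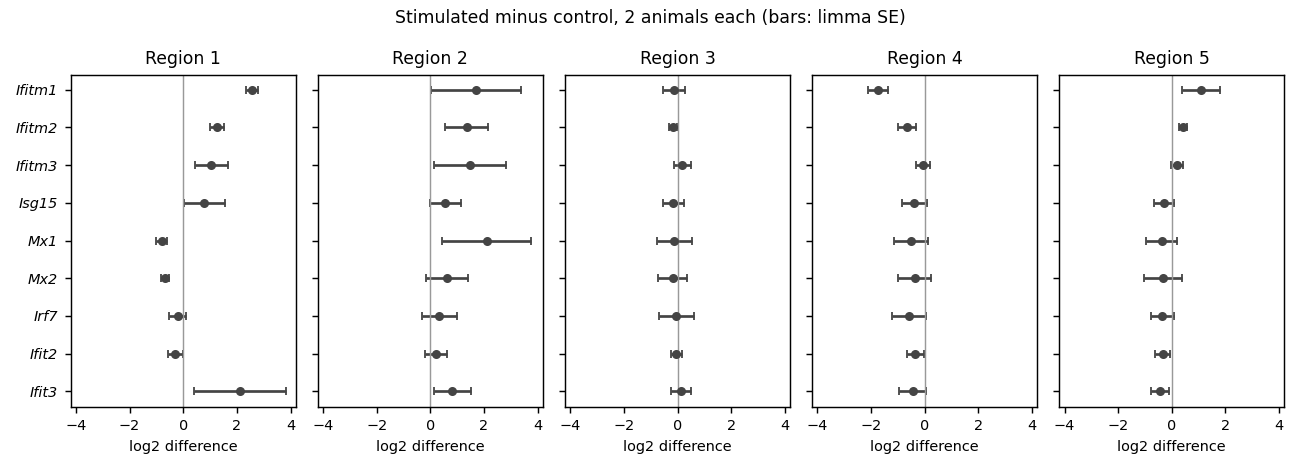
Stimulated minus control difference in log2 FPKM of each member in regions 1 to 5, with 2 animals per arm and bars of 1 limma SE. The widest bars are those of Ifit3 in region 1 and of Ifitm1 and Mx1 in region 2. The bars of Mx1 and Mx2 are narrowest in region 1. None of the differences passed the adjusted threshold.

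Whether the difference between stimulated and control animals itself differed between the hemispheres was tested on the within-animal differences of region 1 minus region 2. No member was called and none had an unadjusted p below 0.05 in limma, and 0% of all genes were called (643 of 15210 had an unadjusted p below 0.05). The widest contrasts were Mx1 (-2.90, SE 1.84), Ifit3 (1.30, SE 1.22) and Mx2 (-1.30, SE 0.81). In simulated data a log2 change of 2 was recovered in 0 of 200 genes. The simulated libraries were drawn independently, without an animal effect, so this gives no detection limit for the within-animal differences of these rats.

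Animals differed along the cord. Control animal 1 was the highest library for all 9 members in the rostral cord, 8 of 9 at the lesion and 6 of 9 caudally. Its ratio to control animal 2 was 3.26, 2.41 and 2.67 for Mx1 in regions 3, 4 and 5, and 2.60, 3.25 and 3.10 for Mx2. For Irf7 it was 3.18, 2.68 and 2.15. By contrast the ratio for Ifitm2 was 1.17, 1.33 and 0.99. At least 2-fold ratios were found for 3, 4 and 4 of 9 members, and for 1.37%, 1.25% and 1.33% of all genes. T and B lymphocyte markers were highest in the same animal, at 10.9, 41.7 and 16.2 FPKM in summed level against 2.07, 11.85 and 3.63 FPKM in control animal 2. In stimulated animal 1 they summed to 7.83, 25.98 and 12.35 FPKM, above control animal 2 in each of these regions. Its Mx1 and Mx2 were above those of control animal 2 in regions 3 and 4 and below them in region 5. The part of the lymphocyte markers in these ratios was not tested.

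The rest of the pathway was read from lists of its components. Of 12 listed interferon ligands 9 were in the table and none passed the filter: Ifnb1, the first type I interferon to be made, was at the floor of 0.1 FPKM in all 20 libraries, Ifng reached 0.10 FPKM, and the highest value was 0.61 FPKM for Ifnk. For the other lists, the lesion against the rostral cord gave calls in the upward direction only, where 6.78% of all genes were called higher. Among 5 receptors 3 rose, Il10rb (log2 difference 1.14, adjusted p = 0.0306), Ifngr1 (log2 difference 0.83, adjusted p = 0.0383) and Ifnar2 (log2 difference 0.52, adjusted p = 0.0322), which are subunits of the receptors for interferon lambda, gamma and type I interferon. Among 10 signal transducers 3 rose: Irf8, a factor of the myeloid lineage (log2 difference 1.82, adjusted p = 0.0290), Irf5 (log2 difference 1.02, adjusted p = 0.0218) and the kinase Tyk2 (log2 difference 0.58, adjusted p = 0.0310). Of 12 nucleic acid sensors 6 rose, led by the endosomal receptors Tlr8 (log2 difference 2.65, adjusted p = 0.0105), Tlr9 (log2 difference 1.78, adjusted p = 0.0223) and Tlr7 (log2 difference 1.61, adjusted p = 0.0108).

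Of 58 other interferon-induced genes 11 rose at the lesion and all 58 had positive differences (median 0.93, against -0.02 over all genes). Ddx60 (log2 difference 2.32, adjusted p = 0.00401), the antiviral enzyme Rsad2 (log2 difference 1.89, adjusted p = 0.00697) and Slfn13 (log2 difference 1.88, adjusted p = 0.0164) led them. Of 10 brakes on the pathway the Isg15 protease Usp18 rose (log2 difference 1.26, adjusted p = 0.00750). Of the other Ifitm genes, Ifitm6 and Ifitm10, neither was called here, and Ifitm10 was lower at the lesion than in the caudal cord (log2 difference -0.58, adjusted p = 0.0191), opposite to Ifitm1. The comparison of the lesion with the caudal cord called no other listed gene, and that of caudal with rostral cord called 1, Tor3a (log2 difference 0.38, adjusted p = 0.0497).

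Between the hemispheres no receptor was called, 2 transducers were higher under the electrodes (Irf9, log2 difference 0.87, adjusted p = 0.0343, and Jak1, log2 difference 0.33, adjusted p = 0.0356), and 7 of 12 sensors were, with Tlr8 ahead (log2 difference 2.74, adjusted p = 0.0182). Of the other interferon-induced genes 15 of 58 were called. Their median was 1.11, against 0.06 over all genes, and 6.86% of all genes were called higher in this contrast. Slfn3 (log2 difference 3.52, adjusted p = 0.0364) ran from 1.12 to 33.9 FPKM in region 1 and from the floor of 0.1 to 2.69 FPKM in region 2. Oasl (log2 difference 2.17, adjusted p = 0.0263) and Ddx60 (log2 difference 2.11, adjusted p = 0.0164) followed, and Usp18 (log2 difference 1.43, adjusted p = 0.00859) and Ifitm10 (log2 difference 0.51, adjusted p = 0.0254) were called too. Against the cord the hemispheres had 3 receptors, 7 transducers, 8 sensors and 26 other interferon-induced genes lower, at the background of 47.1% given above, and Herc6 was among the few that were higher (log2 difference 1.499, adjusted p = 9.65e-11).

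No listed gene was called between stimulated and control animals in any region (limma), and 8, 1, 0, 3 and 1 of the 96 had an unadjusted p below 0.05 in regions 1 to 5, where 5.44%, 1.41%, 3.43%, 2.24% and 3.59% of all genes had one. The median difference of the 58 other interferon-induced genes was 0.39 under the electrodes, 0.94 on the opposite side, -0.06 rostrally, -0.32 at the lesion and 0.04 caudally. At the lesion 56 of 58 of them were on the side of lower levels in the stimulated animals, as all 9 members were, and the median over all genes was 0.00. Both counts come from the same animals and from genes that vary together, so neither is a replicate of the other. Without control animal 1 the direction turned in 6 of 9 members, and the 58 genes are not given without that animal.

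**Figure D4:**
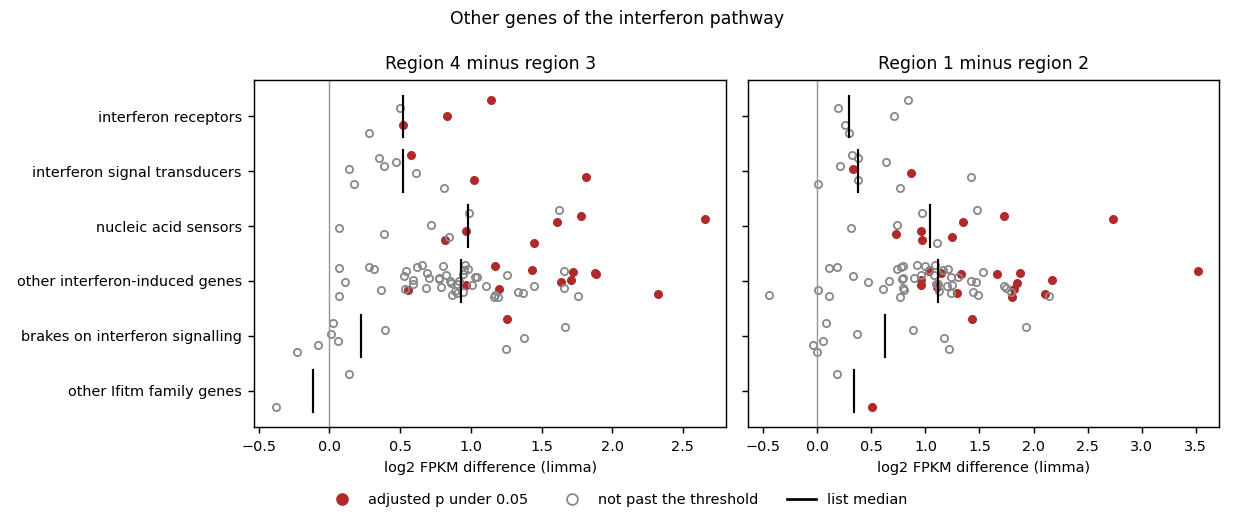
limma difference in log2 FPKM of the listed pathway genes, lesion minus rostral cord on the left and region 1 minus region 2 on the right, 1 circle per gene, filled where the adjusted p was below 0.05, with a black line at each list's median. All filled circles lie to the right of 0 in both panels.

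Over the 20 libraries the members moved together to differing degrees. Pearson's r of log2 FPKM between pairs of members ran from 0.53 to 0.94 over 36 pairs (median 0.78), and from 0.62 to 0.96 without the region 1 library of stimulated animal 2 (median 0.84). The libraries share 4 animals and differ in tissue, so these values describe the table and carry no test. The genes whose profile was most like the mean of the 9 members were Ifih1, the cytoplasmic sensor of long double-stranded RNA (r = 0.97), Bmf (0.97), Tgfb1 (0.97), Pltp (0.96) and Parp14 (0.96). For single members the nearest gene was Usp18 for both Irf7 (0.95) and Ifit2 (0.96), Dhx58 for Mx1 (0.95) and Mx1 for Mx2 (0.92). It was Dram1 for Isg15 (0.94) and Myo1f, an unconventional myosin of leukocytes, for Ifitm2 (0.99). The nearest gene to Ifitm1 was Cd8b, a subunit of the Cd8 co-receptor of cytotoxic T cells (0.97), to Ifitm3 it was Timp1, an inhibitor of metalloproteinases (0.99), and to Ifit3 it was the cytokine Osm (0.92).

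**Figure D5:**
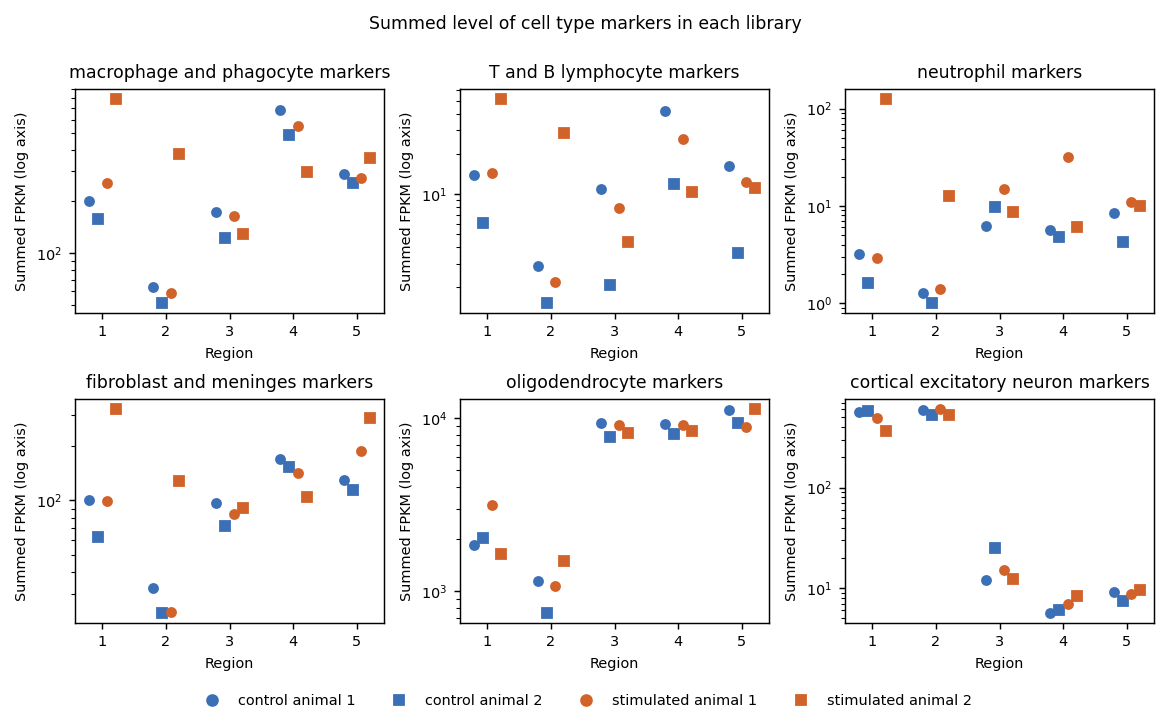
Summed FPKM of 6 marker lists (log axis) in regions 1 to 5, with 1 symbol per library. The squares of stimulated animal 2 are highest for macrophage, lymphocyte, neutrophil and fibroblast markers in regions 1 and 2, and the blue circle of control animal 1 is highest for lymphocyte markers in regions 3, 4 and 5.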

How the data were processed

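RNA-seq values of 20 libraries from 4 rats were taken as deposited. Per the study's methods and the submitters' processing notes, the authors checked reads with FastQC and MultiQC 1.6, aligned them to the rat genome Rnor6 with TopHat2 2.1.0 and estimated the deposited FPKM values with Cufflinks 2.2.1. Values were raised by them to a floor of 0.1 FPKM (39.7% of all values are at it). FPKM hold no counts, and the read totals of the study were not used here, so no count test was run and no counting interval is given. The build of RefSeq's promoter table (GRCr8) differs from that of the files, so it gave sequences, their GRCr8 positions and gene order only.

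From these values, log2 FPKM was computed without a further pseudocount for the 15210 of 30443 genes with at least 1 FPKM in any library. Models were fitted over all these genes in limma 3.58.1 (R 4.3.3; lmFit, eBayes with a trend), with Benjamini-Hochberg adjustment over all of them and a threshold of 0.05. Because fits were made on log2 of floored FPKM, differences of low genes are understated. Stimulation was fitted in each region with 2 against 2 animals, region contrasts on all 20 libraries without the animal as a block, and the contrast of the stimulation difference between hemispheres on within-animal differences. In the stimulation fits and the contrast between hemispheres, a two-sided p weighs a difference against the spread between animals. In the region contrasts the spread is pooled over the libraries of all regions and both arms. Those libraries are treated as independent although the same rats gave all regions, so that p does not measure the spread between animals. Groups came from the sample titles. Same-numbered stimulated and control animals are different rats. Regions of the same number and arm come from the same rat, and same-animal deviations from the region means correlated between 0.41 and 0.77 for regions 1 and 2 and between 0.14 and 0.26 for regions 3 and 4.

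The fits were checked by simulation over 15210 genes, 200 of them changed by 2 on the log2 scale. In the stimulation contrasts 178 to 180 were recovered with 6 to 12 false calls, and in the region contrasts 195 to 199. The contrast between hemispheres recovered 0, and 196 at a change of 6. Simulated libraries had independent normal noise, a spread per gene averaged over all groups, and no animal effect. These counts therefore check the fitting and do not give the power of the tests in these data. Alternatives were log2(FPKM + 1), no filter, a filter of 1 FPKM in 2 libraries, quantile and upper-quartile scaling, no trend, a single model, blocks, each arm alone and leaving out each animal. Pathway genes named outside the members are those with the largest called difference in each list, up to 3, or the smallest p where none was called. The nearest genes were ranked by Pearson's r over the 20 libraries. The members, the lists and the tests were chosen with earlier results of these data known, so no pattern here is independent support for another. Figures were drawn with matplotlib 3.10.9 from tables made in Python 3.11.15 (numpy 2.4.6, pandas 2.3.3).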

Additional observations from a re-analysis of the deposited data

Results flagged for a closer look

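A library was noted where its gap to the nearest of the other 3 libraries of its region over the whole range exceeded Dixon's 95% critical value for 4 samples. This held for 13 of the 45 combinations of member and region. The nominal chance rate of about 1 in 20 is for normal and independent values. FPKM was used here without logs, and the combinations share the same animals and correlated genes, so the count cannot be judged against that rate. The arms of a region were pooled, so a difference between arms enters this measure.

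Most of these were libraries of stimulated animal 2 in the hemispheres. On the opposite side it had 12.9 FPKM of Ifitm1 (0.60 to 0.94 in the other 3 libraries), 29.99 FPKM of Ifitm2 (5.35 to 6.87), 25.1 FPKM of Ifitm3 (2.15 to 2.82), 2.09 FPKM of Isg15 (0.77 to 0.92), 4.88 FPKM of Mx1 (0.15 to 0.57) and 2.72 FPKM of Ifit3 (0.72 to 1.03). Under the electrodes it had 36.2 FPKM of Ifitm3 (8.89 to 11.9), 9.67 FPKM of Isg15 (2.30 to 2.87) and 45.5 FPKM of Ifit3 (1.69 to 2.14). In the caudal cord the same animal had 7.48 FPKM of Ifitm1 (1.72 to 1.90).

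The other 3 were control animal 1 in the caudal cord, high in Ifit2 (3.77 FPKM, 2.27 to 2.47 in the others) and in Ifit3 (2.80 FPKM, 1.47 to 1.64), and stimulated animal 1 in region 1, low in Ifit2 (1.88 FPKM, 2.80 to 2.99 in the others).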

How the results depend on the processing

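All 9 members kept their direction under every alternative in the lesion against rostral cord, caudal against rostral cord and region 1 against region 2. In the lesion against rostral cord the count of members called (5) was 3 without a filter, 3 with control animals alone and 0 with stimulated animals alone, and 1 to 8 when 1 animal was left out. For the lesion against the caudal cord (1) it was 0 without a filter, 2 with controls alone and 0 with stimulated animals alone, and 0 to 2 without 1 animal. For the caudal against the rostral cord (0) it was 0 to 1 without 1 animal. For region 1 against region 2 (5) it was 3 with log2(FPKM + 1), 3 without a filter, 0 with stimulated animals alone, 9 without the region 2 library of stimulated animal 2, and 0 to 9 without 1 animal. For the hemispheres against the cord (3) it was 1 with quantile normalization, 5 with controls alone, 0 with stimulated animals alone, 5 without that region 2 library, and 0 to 6 without 1 animal. In the hemispheres against the cord 5 of 9 members kept their direction under every alternative. Ifit3, Ifitm1 and Ifitm2 turned also in alternatives other than leaving out 1 animal, Ifitm2 to 0.0156 (log2) with the stimulated animals alone. For the lesion against the caudal cord 8 of 9 kept their direction, and Ifitm3 ran from -0.09 to 0.27. Quantile normalization moved the median of all genes from -0.14 to -0.03 for lesion against caudal cord, from 0.11 to -0.02 for caudal against rostral cord, from -0.18 to -0.04 for hemispheres against cord, from 0.06 to -0.05 for region 1 against region 2, from 0.08 to -0.06 for stimulation in region 2 and from -0.13 to -0.02 for the contrast of stimulation between hemispheres, so differences there are read relative to that shift. Fits on 1 arm or 3 animals rest on fewer libraries.

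For stimulation (0 called in each region) 5, 2, 0, 3 and 3 of 9 members kept their direction under every alternative in regions 1 to 5. The count of calls was 0 to 1 in region 1 (Ifit3), 0 to 3 in region 2 (Ifitm1, Ifitm2 and Ifitm3) and 0 to 1 in region 5 (Ifitm1) when 1 animal was left out, all without stimulated animal 1, where the lone stimulated animal is assumed to vary like the controls. Without 1 animal the log2 difference ran from -0.26 to 1.81 for Isg15 and from -0.26 to 4.49 for Ifit3 in region 1, and from -0.52 to 3.91 for Ifitm1 and from -0.31 to 3.23 for Ifitm3 in region 2, the negative ends all without stimulated animal 2. Same-numbered animals of both arms share only a number (correlation of deviations -0.21 to 0.32 by region). With that number as a replicate block 1 member, Ifitm1 in region 5, was called, and with the numbers crossed, a pairing chosen after seeing the data, 1, Ifitm1 in region 4. The causes were not tested. With the animal as a replicate block in the region contrasts the count stayed within 1.5 times.

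Over all genes, calls ranged across alternatives from 0 to 228, 548, 3, 140 and 443 for stimulation in regions 1 to 5, from 0 to 4909 (lesion against rostral cord), 1966 (lesion against caudal), 1237 (caudal against rostral), 3674 (region 1 against 2) and 185 (contrast of stimulation between hemispheres), and from 6790 to 12466 (hemispheres against cord). FPKM alone give no counting error for a value.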
